A study of Bos taurus with 252 samples.

Results

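The mitochondrial ribosomal proteins are the nuclear-encoded protein subunits of the mitochondrial ribosome, and most of their genes carry symbols that begin with MRPL or MRPS. Members were picked by symbol, as MRPL or MRPS followed by a number and at most 1 letter, so subunits under other symbols, such as DAP3 and PTCD3, are not among them. The rule uses no change between groups or days, but the family was chosen with earlier results of these data known. Of the 33282 genes in the count table, 78 had such a symbol. A gene was tested where its CPM (its counts per M counts of the library) was above 0.2 in at least 12 of 252 libraries, which held for 77 of the 78 members and for 19056 genes in all. Of the 77 members, 50 belong to the large subunit and 27 to the small subunit, and 48 have a homolog in the bacterial ribosome while 29 are specific to mitochondria. MRPS18A and MRPS30 are 2 subunits that sit in the large subunit in spite of their symbols.

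Whole blood of 42 crossbred steers was sequenced on day 0, the day after arrival at a feedlot, and then on day 3, day 7, day 14, day 21 and day 56. Each of the 7 groups held 6 steers. NC steers received no antimicrobial, and the other groups received, once on day 0 and after the day 0 sample, CEFT (ceftiofur), ENRO (enrofloxacin), FLOR (florfenicol), OXYT (oxytetracycline), TILD (tildipirosin) or TULA (tulathromycin). Every steer, NC included, had already been given tildipirosin, vaccines, a hormone implant and antiparasitics at the start of an earlier backgrounding period, so NC was not free of antimicrobials over its whole life. Each group was kept in a pen of its own and was sampled in a fixed order, so treatment, pen and sampling order cannot be told apart. Pens of treated groups also held untreated steers, which were not sequenced. The sequenced steers were a random subset of the rest of each pen, and no steer was treated for disease during the trial.

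The mitochondrial ribosome translates the few messages of the mitochondrial genome, all of them for subunits of the oxidative phosphorylation complexes. It descends from a bacterial ribosome, and many of its proteins retain a bacterial counterpart, while others were added later and replace or extend parts of the ribosomal RNA. The proteins are made in the cytosol and imported. Because of this descent, antimicrobials that bind the bacterial ribosome, such as tetracyclines, phenicols and macrolides, are known for effects on the mitochondrial ribosome at sufficient exposure. FLOR, OXYT, TILD and TULA act on the bacterial ribosome, whereas ceftiofur acts on the cell wall and enrofloxacin on DNA gyrase.

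Libraries held 26.1 to 74.1 M estimated counts (median 43.6 M), and hemoglobin genes took 0.00405 to 25.5% of a library (median 0.9%), with day medians rising from 0.224% on day 0 to 3.07% on day 14 and 3.36% on day 21. Of the blood cell markers listed, 1 of 6 for NK and cytotoxic cells and 1 of 8 for neutrophils were not in the count table under the listed symbol, and no other marker was at 0 in all libraries of a day. All libraries of a steer were run on 1 sequencing lane. NC and ENRO were wholly on lane 1, TULA on lane 2, CEFT and OXYT on lane 3, and FLOR and TILD were split between 2 lanes each. Blood is a mixture, and in bulk samples fewer cells of a type and less RNA per cell cannot be told apart.

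Members were measured at moderate depth. The median CPM over the 252 libraries lay between 10 and 50 for 58 members, under 10 for 12 and over 50 for 7, and 76 of the 77 tested members had a count above 0 in every library. Together the members took 0.152 to 0.258% of a library (median 0.2%). These are levels per library and not per length, so the members are not ranked against each other. The symbol that failed the filter was MRPL41, at 0 in 250 of 252 libraries and at most at 0.0675 CPM. The member just inside was MRPS15, the homolog of bacterial S15, with 152 libraries above 0.2 CPM, a median of 0.345 CPM (0.0144 to 2.36) and a median count of 14. In the RefSeq gene table, 23 members overlap another gene, among them MRPL40 with HIRA, MRPL47 with ACTL6A, MRPS18C with ABRAXAS1 and MRPS6 with SLC5A3, and reads of such pairs may be divided between them.

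The mRNAs of most mitochondrial ribosomal proteins were at a higher level in whole blood after arrival when all steers were compared with their own day 0. Tested with edgeR (quasi-likelihood, steer as a block, false discovery rate, FDR, 0.05 by Benjamini-Hochberg over all genes tested), 41 members were higher and 2 lower on day 3, 52 higher and 1 lower on day 7, 54 higher and 6 lower on day 14, 49 higher and 13 lower on day 21, and 44 higher and 16 lower on day 56. Among all genes tested, calls were divided about evenly between the directions: 22% were higher and 20.2% lower on day 3, 25.5% and 21.3% on day 7, 33.8% and 31.2% on day 14, 33.6% and 32.8% on day 21 (66.4% in all), and 33.5% and 31.9% on day 56 (65.4% in all). The median log2 change of the members was 0.12, 0.15, 0.26, 0.18 and 0.12 on the 5 days, where the median over all genes was 0.02 or 0.03. Over the 5 days together, 72 of 77 members passed the F test, against 80.4% of all genes. The members differed from the background in the direction of their calls more than in the share called.

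On day 14, 35 of 50 large subunit members were higher and 3 lower (median log2 change 0.26), and 19 of 27 small subunit members were higher and 3 lower (0.27). Members with a bacterial homolog had 33 higher and 4 lower of 48, and mitochondria-specific members had 21 higher and 2 lower of 29, each with a median of 0.26. By day 56 the medians were 0.11 for the large and 0.17 for the small subunit. The difference between subunits was not tested.

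**Figure D1:**
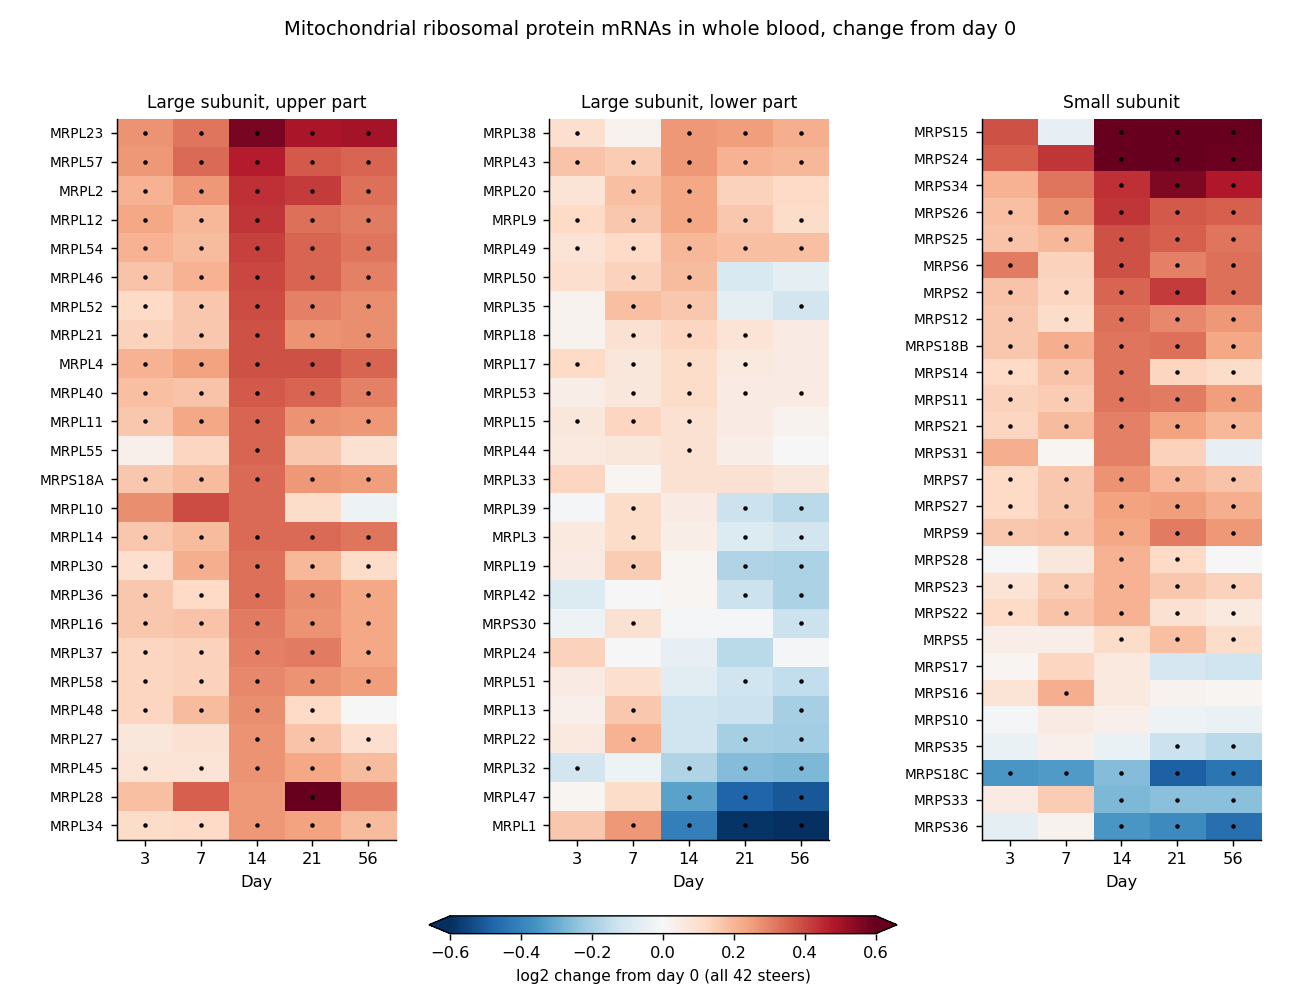
Heat map of the log2 change from day 0 over all 42 steers for the 77 tested members (rows, grouped by subunit) on the 5 later days (columns, in order); colour saturates at 0.6 in either direction and dots mark FDR under 0.05. Rows are ordered by the day 14 change, with 54 members called higher and 6 lower on that day.

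The 10 members past the F test with the largest mean absolute change over the 5 days were MRPS15, MRPS24, MRPL23, MRPL1, MRPS34, MRPS18C, MRPL57, MRPL2, MRPS26 and MRPL4, of which MRPS18C fell and MRPL1 fell from day 14 on. MRPL23, the homolog of bacterial L23 at the tunnel exit, was at 12.5 to 26.5 CPM (median 18.3, TMM-scaled, as for all CPM from here on) on day 0 and at 17.3 to 37.3 (median 26.6) on day 14. Its log2 change was 0.57 ± 0.05 (SE) on day 14 (FDR 2.21e-24), and it was higher in 40 of 42 steers. MRPL4, the homolog of L4, which lines the tunnel, went from 21.7 to 41 CPM (median 28.8) on day 0 to 29.8 to 51.1 (median 37.9) on day 14. The ranges of both genes overlapped between the days, and the rise is seen within steers: MRPL4 was higher in 41 of 42 on day 14 (log2 0.38 ± 0.03) and in 42 of 42 on day 21 (0.38 ± 0.03). MRPL2, a homolog of L2 near the peptidyl transferase centre, rose by 0.44 ± 0.04 on day 14 and was higher in 40 steers, from a median of 15.8 CPM to 21.7. MRPL57, which is specific to mitochondria, rose by 0.47 ± 0.04 (40 steers, 22.6 to 30.6 CPM).

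In the small subunit, MRPS26, a mitochondria-specific protein, rose by 0.43 ± 0.04 on log2 scale on day 14 and was higher in 40 of 42 steers, with a median of 39.3 CPM on day 0 and 53 on day 14. MRPS12, the homolog of S12 at the decoding centre, rose by 0.33 ± 0.03 (37 steers, 22.7 to 28.1 CPM). MRPS15, MRPS24 (a homolog of S3) and MRPS34 had large changes with large errors. MRPS15 was at 0.242 CPM on day 0 and 0.573 on day 14 by median (1.25 ± 0.24, 34 steers), and MRPS24 at 4.13 and 6.67 CPM (0.80 ± 0.21, 28 steers). MRPS34 reached its highest change on day 21 (0.56 ± 0.18, 30 steers, from a median of 25 to 43.8 CPM). These 3 genes had less even rises over steers than MRPL23 or MRPL4, in spite of larger average changes.

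MRPL11, MRPL12, MRPL58 and MRPS18A, named for their known functions, were called higher on each of the 5 days, and their changes are given for day 14. MRPL12, the homolog of the bacterial L7/L12 stalk protein, was at 28.4 to 51.5 CPM (median 36.8) on day 0 and 36.2 to 72.6 (median 50.7) on day 14, a log2 change of 0.43 ± 0.04 with 37 of 42 steers higher. MRPL11, at the stalk base, rose by 0.35 ± 0.03 (38 steers, 26.6 to 32.4 CPM). MRPL58, a peptidyl-tRNA hydrolase that frees stalled ribosomes, rose by 0.29 ± 0.03 (38 steers, 31 to 38.4 CPM), and MRPS18A rose by 0.34 ± 0.03 (40 steers, 44.9 to 57.3 CPM). MRPL10, the homolog of L10, which anchors the L7/L12 stalk, passed on no day (0.34 ± 0.17 on day 14, FDR 0.0786, 25 steers higher).

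A smaller set fell. MRPL1, MRPL32, MRPL47, MRPS18C, MRPS33 and MRPS36 were lower on days 14, 21 and 56. MRPL1, the homolog of the L1 stalk protein beside the exit site for tRNA, was at 1.98 to 9.22 CPM (median 5.48) on day 0, at 2.29 to 14.3 (median 7.05) on day 7 and at 1.36 to 13.3 (median 3.37) on day 56. It was higher on day 7 (log2 0.26 ± 0.11, FDR 0.039) and lower by day 56 (-0.67 ± 0.11, FDR 4.29e-08), when 8 of 42 steers were above their day 0. MRPL47, a homolog of L29 at the tunnel exit, was at 10.8 to 26.9 CPM (median 20.8) on day 0 and 7.6 to 39.4 (median 13.1) on day 56 (-0.51 ± 0.07, 6 steers higher). The steers' ranges overlapped for both genes on all days, and the highest value of each on day 56 lay above the highest on day 0.

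MRPS18C, 1 of the paralogs of bacterial S18, was the only member lower on all 5 days. It was at 15.7 to 59.8 CPM (median 24.6) on day 0, 12.2 to 27.9 (median 21.5) on day 3 and 11.3 to 26.6 (median 19.1) on day 21, with a log2 change of -0.35 ± 0.07 on day 3 and -0.49 ± 0.07 on day 21. Its paralogs went the other way, since MRPS18A and MRPS18B were both higher on all 5 days. MRPL32, a zinc-binding protein that is processed on import, fell with the least error: it was at 10.5 to 21.4 CPM (median 16.4) on day 0 and 8.64 to 21.0 (median 13.1) on day 56 (-0.27 ± 0.03, 5 of 42 steers higher). MRPS36, which later work places in the 2-oxoglutarate dehydrogenase complex and not in the ribosome, changed by -0.45 ± 0.07 on day 56, and MRPS33 by -0.25 ± 0.08.

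Another pattern was a rise within the first week and a fall after it. MRPL1, MRPL3, MRPL13, MRPL19, MRPL22, MRPL35, MRPL39 and MRPS30, all 8 of the large subunit, were higher on day 3 or 7 and lower on day 14, 21 or 56. MRPL22, the homolog of L22 in the exit tunnel, was 0.21 ± 0.07 higher on day 7 and changed by -0.21 ± 0.07 by day 56, with medians of 10.1, 12.1 and 8.54 CPM on days 0, 7 and 56. MRPL3, the homolog of L3 near the peptidyl transferase centre, was 0.11 ± 0.04 higher on day 7 and at -0.11 ± 0.04 on day 56. MRPS30 was at 0.09 ± 0.03 and -0.13 ± 0.03 on those days, MRPL13 at 0.16 ± 0.07 and -0.20 ± 0.07, and MRPL19 at 0.15 ± 0.05 and -0.19 ± 0.05. These changes are small beside the spread between steers, since MRPL3 was above day 0 in 25 steers on day 7 and in 14 on day 56.

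Of the 77 members, 36 were higher on all 5 days and 63 on at least 1, and 16 were lower on at least 1 day. Among all genes, at most 22% can have been higher on all 5 days, the share that was higher on day 3. The other patterns over several days were not counted over all genes, so those counts are not set against a background. The average change was highest on day 14 for 47 members, on day 7 for 19, on day 21 for 8 and on day 3 for 3. No single day passed for MRPL10, MRPL24, MRPL33, MRPS10, MRPS17 and MRPS31. MRPS10, a homolog of S10, was the steadiest of the better measured ones, with medians between 52.6 and 56.2 CPM on the 6 days and log2 changes from -0.04 to 0.05 (SE 0.02). MRPL28 was called on day 21 (0.63 ± 0.20) but did not pass the F test, and it was at 0 in 5 libraries.

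**Figure D2:**
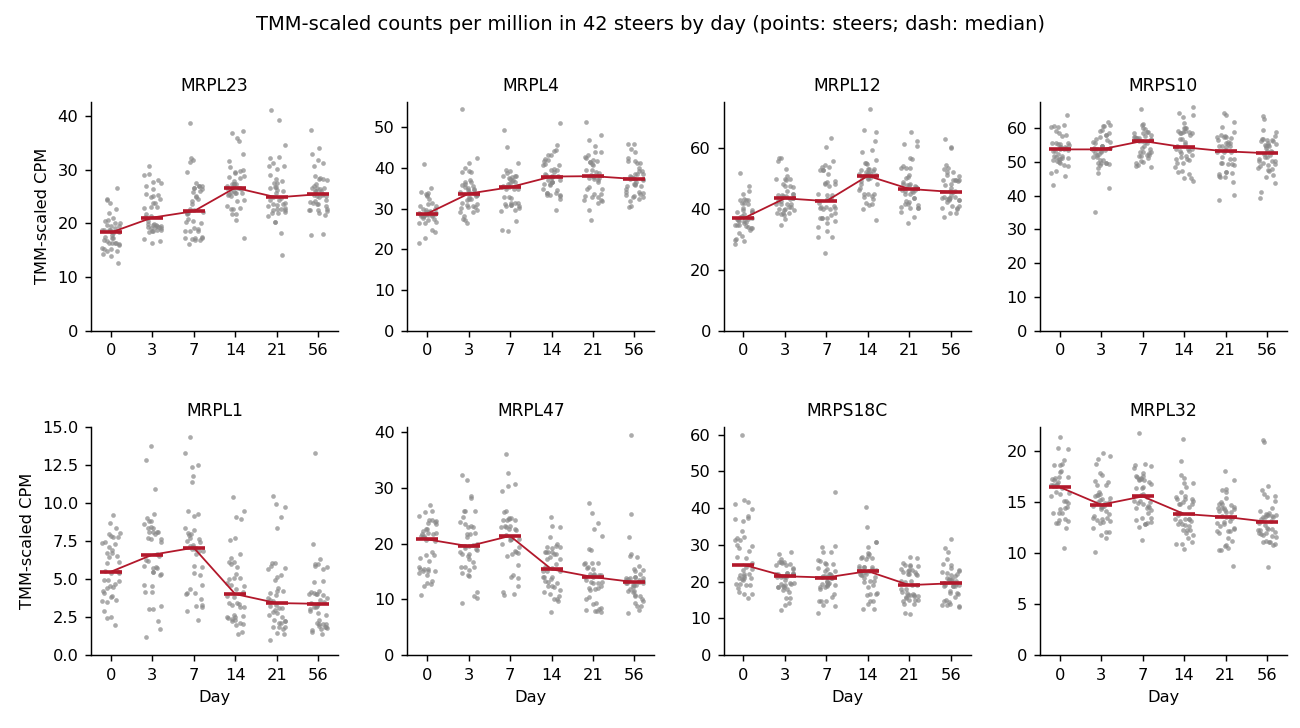
TMM-scaled CPM by day in all 42 steers for 8 members, with each steer as a point and medians joined by a line. MRPL23, MRPL4 and MRPL12 rise to day 14 (medians 18.3 to 26.6, 28.8 to 37.9 and 36.8 to 50.7), MRPS10 stays between medians of 52.6 and 56.2, and MRPL1, MRPL47, MRPS18C and MRPL32 end below day 0.

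The rise came in 2 intervals. Between neighbouring days, 41 members rose and 2 fell from day 0 to day 3, and 39 rose and 11 fell from day 7 to day 14 (all genes: 26.2% higher and 23.3% lower). From day 3 to day 7, 5 rose and none fell (all genes: 10.7% and 12.4%), with 63 of 77 log2 changes above 0. After day 14 the direction turned: 2 rose and 14 fell to day 21 (all genes: 7.93% higher and 6.79% lower), and 3 fell to day 56 with none rising (4.55% and 3.59%, 8.14% in all). MRPL1 had the largest fall between neighbouring days, -0.67 from day 7 to day 14 (FDR 5.58e-08).

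In NC steers alone, the rise passed the test from day 14 on. In NC alone, no member passed on day 3 (3 at an unadjusted p under 0.05; all genes 0.373% called) and 1 on day 7 (10 at an unadjusted p under 0.05; all genes 3.63%, of which 1.64% higher). On day 14, 28 were higher and 1 lower (all genes 16% and 14.2%, 30.2% in all), on day 21, 30 higher and 2 lower (13.2% and 11.7%), and on day 56, 21 higher and 2 lower (16.5% and 14.2%). MRPL23 in NC steers had log2 changes of -0.01 ± 0.12 on day 3 and 0.48 ± 0.12 on day 14 (FDR 0.00104), when 6 of 6 steers were higher. MRPL4 in NC was at -0.05 ± 0.07 on day 3 and 0.27 ± 0.07 on day 14, again in 6 of 6. With 6 steers in place of 42 the errors are wider, so fewer calls do not by themselves set NC apart from the other groups.

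**Figure D3:**
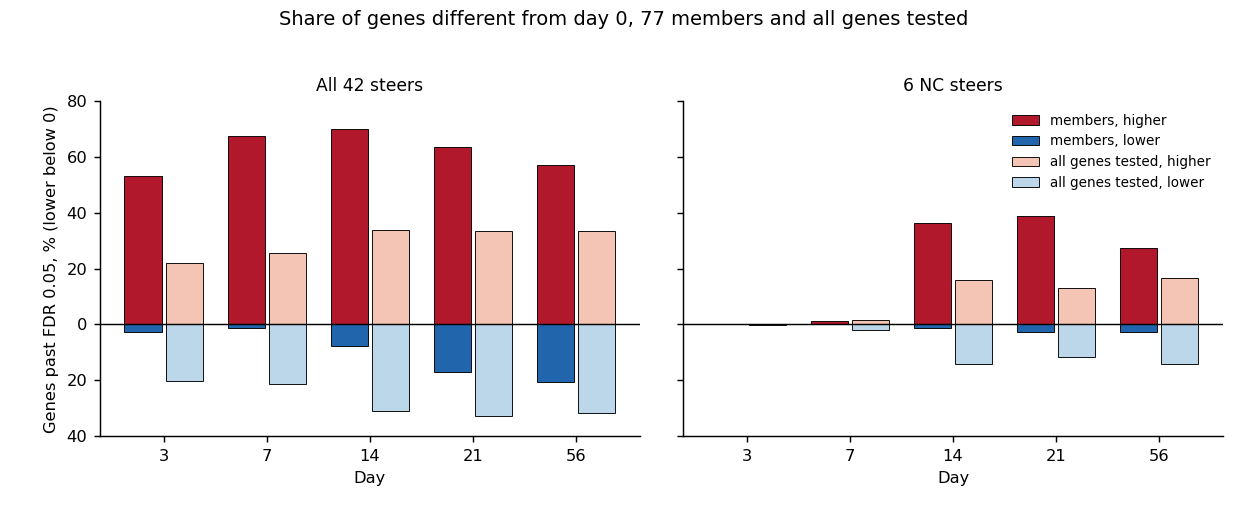
Members called higher and lower on each day, as a share of the 77, beside the share of all genes tested, for all steers and for NC steers alone. In all steers the members called higher lie above the background on each day; in NC steers they do so from day 14 on, with 28 of 77 higher on day 14.

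Steers varied in how many members rose. Of 77 members, the median steer had 54, 58, 60.5, 54 and 50.5 above its own day 0 on the 5 later days in order. At least 39 of the 77 members were above day 0 in 34, 33, 37, 38 and 39 of the 42 steers. The lowest counts on the 5 days came from 1 animal, ENRO steer 10, with 19, 13, 15, 13 and 14 members above day 0 and median log2 changes from -0.15 to -0.42. FLOR steer 4 was also low on days 3, 14 and 21, with 23, 18 and 20 members, but not on day 56, when 60 were above day 0. On day 7, ENRO steers had a median of 25.5 members above day 0 and OXYT steers 35.5, against 43 to 64.5 in the other groups. On day 14, CEFT steers had the highest median, 68.5, with all 6 between 64 and 71.

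**Figure D4:**
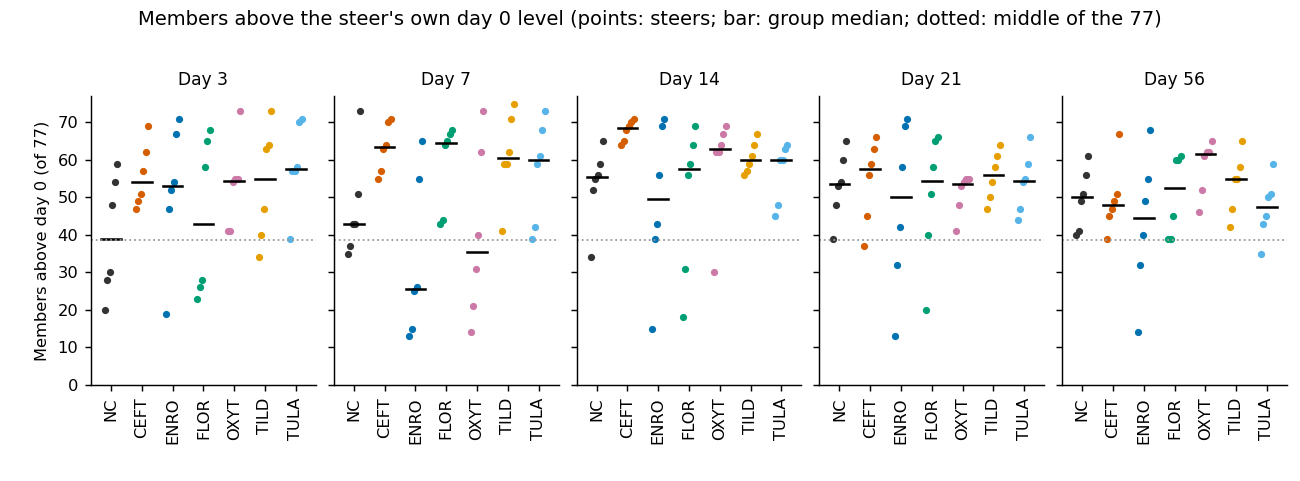
Number of the 77 members above the steer's own day 0 on each later day, with 1 point per steer, by group. Bars are group medians and the dotted line is the middle of the 77. ENRO steer 10 is at 19, 13, 15, 13 and 14, and all CEFT steers on day 14 are between 64 and 71.

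The size of the rise also differed between sequencing lanes, which cannot be told apart from the groups they carried. On day 14 the median log2 change of the members was 0.10 over the 14 steers of lane 1 (NC, ENRO and 2 FLOR steers), 0.29 in lane 2 and 0.33 in lane 3. On day 7 it was 0.03, 0.27 and 0.16. Of the 60 members called on day 14, 55, 60 and 60 had the same sign within lanes 1, 2 and 3. On day 7, 34 of 53 did so in lane 1, 53 in lane 2 and 52 in lane 3. The change is taken within steers and thus within a lane, so the direction on day 14 held in each lane, and that on day 7 was mixed in lane 1.

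Other genes needed for mitochondrial translation rose too, but less evenly. Of 61 tested genes of this kind that do not have an MRPL or MRPS symbol, 32 were higher and 11 lower on day 14, with a median log2 change of 0.09. Subunits of the mitochondrial ribosome under other symbols had 3 higher and 0 lower of 5 (median 0.34), with AURKAIP1 at 0.40 ± 0.03, GADD45GIP1 at 0.41 ± 0.06 and CHCHD1 at 0.34 ± 0.04 called, and PTCD3 (0.02 ± 0.02) and DAP3 (0.00 ± 0.02) not past the test. Assembly factors had 16 higher and 4 lower of 24 (median 0.24), mitochondrial aminoacyl-tRNA synthetases 8 higher and 5 lower of 20 (0.05), and initiation, elongation and release factors 5 higher and 2 lower of 12 (0.04). The assembly factors were thus close to the ribosomal proteins in their median, and the synthetases and factors were close to the median of all genes.

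The 6 with the smallest p on day 14 were mostly assembly genes. RCC1L, an exchange factor needed for ribosome assembly, was at 17.8 to 29.8 CPM (median 20.3) on day 0 and 22.6 to 36.7 (median 27.1) on day 14, a log2 change of 0.40 ± 0.03. RBFA, a small subunit maturation factor, changed by 0.41 ± 0.03 and ERAL1, a chaperone of the small subunit rRNA, by 0.42 ± 0.03. YBEY, an endoribonuclease, changed by 0.43 ± 0.03, MRM1, an rRNA methyltransferase, by 0.40 ± 0.03, and SARS2, the mitochondrial seryl-tRNA synthetase, by 0.40 ± 0.03. All 6 were still called higher on day 56, with ERAL1 at 0.46 ± 0.03.

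Cytosolic ribosomal proteins and nuclear-encoded oxidative phosphorylation subunits had similar counts. On day 14, 54 of 77 cytosolic ribosomal proteins were higher and 8 lower (median log2 change 0.42), and 54 of 81 oxidative phosphorylation genes were higher and 10 lower (0.25). On day 3 the counts were 41 and 0 (0.15) and 37 and 3 (0.09). Markers of blood cells moved on the same days. On day 14, 8 of 10 T cell markers were higher and 1 lower, 5 of 7 B cell markers higher and 1 lower, 5 of 7 neutrophil markers lower and 1 higher, 5 of 6 monocyte markers lower and none higher, and 9 of 9 red cell precursor markers higher. The summed level of the T cell markers was 1210 to 2700 CPM (median 1760) on day 0 and 1670 to 3540 (median 2230) on day 14, and that of the monocyte markers 289 to 1210 (median 581) and 165 to 832 (median 273). The neutrophil sum went from a median of 3680 CPM (2500 to 6880) to 2860 (1850 to 5350), and the red cell precursor sum from 2300 (46.4 to 41500) to 31000 (373 to 205000). On day 56, 2 of 9 red cell precursor markers and 44 members were higher. The median sums on day 56 were 2420 CPM for the T cell markers and 349 for the monocyte markers. They were 3040 CPM for the neutrophil markers and 3400 for the red cell precursor markers. The part of these shifts in the rise of the members was not tested.

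For the members, the share of the variance of log2 CPM between steers was 13.4 to 66.8% (median 34%), where the median over all genes was 38.6%. The share between days was 0.298 to 36.8% (median 14.9%), against a median of 8.36% over all genes. The shares between 42 steers and between 6 days rest on different numbers of levels and are not compared with each other. The most steer-bound members were MRPL17 (66.8%), MRPL15 (65.8%) and MRPS35 (62.9%), and the least were MRPS24 (13.4%), MRPL28 (14.2%) and MRPL24 (15.8%). MRPL23 had the highest share between days, 36.8%.

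The treatment question was first asked as the change from day 0 in a treated group less the same change in NC (same fit, FDR 0.1). Ceftiofur steers had a stronger rise than NC steers on day 3. The group median of each steer's median log2 change of the members was 0.17 in CEFT and 0.01 in NC. It was 0.17 in TILD, 0.16 in TULA, 0.14 in ENRO, 0.08 in OXYT and 0.05 in FLOR. A rise of this size was thus not particular to CEFT. In comparison to NC, 10 members rose more in CEFT on day 3 and none rose less, where 1.99% of all genes were higher and 1.29% lower. They were MRPL4, MRPS5, MRPL37, MRPL20, MRPL12, MRPS18A, MRPL2, MRPS18B, MRPS25 and MRPL23, of which 7 are of the large subunit. The median difference over the 77 members was 0.20 on the log2 scale and that over all genes 0.

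MRPL4 was at 28.4 to 34 CPM (median 29.9) in CEFT on day 0 and 30.8 to 54.6 (median 40.6) on day 3, and at 28.2 to 33.1 (median 30.3) and 27.1 to 33.7 (median 28.7) in NC. It rose in 6 of 6 CEFT steers and in 1 of 6 NC steers, a difference of 0.42 ± 0.10 (FDR 0.0289), with ranges that overlapped on day 3. MRPS5, a small subunit protein with a bacterial homolog, was at 26.3 to 36 CPM (median 30.9) and 33.8 to 44 (median 34.4) in CEFT, and at 29.2 to 35.6 (median 32.3) and 27.4 to 30.4 (median 29.5) in NC. Its day 3 values did not overlap between the groups, and the difference in change was 0.36 ± 0.08 (FDR 0.0289). MRPL12 was at 44.8 to 56.6 CPM (median 47.7) in CEFT on day 3 and at 34.5 to 39.8 (median 38.3) in NC, also without overlap (0.48 ± 0.14, FDR 0.0748).

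MRPL37, a mitochondria-specific protein, had medians of 32.4 and 39 CPM in CEFT and 33.3 and 32.3 in NC on days 0 and 3 (0.31 ± 0.08, FDR 0.0559). MRPS18A went from a median of 45.5 to 54.4 CPM in CEFT and from 49.2 to 47.9 in NC (0.31 ± 0.10, FDR 0.0844). MRPL20 had the largest difference, 0.84 ± 0.25 (FDR 0.0707), but its NC values on day 3 spread from 8.06 to 24.4 CPM and its CEFT values on day 0 from 8.54 to 22.6. For 9 of the 10 genes all 6 CEFT steers rose, and for MRPL20 5 did. Among NC steers 1 to 3 of 6 rose.

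On day 3, 13 of 81 oxidative phosphorylation genes also rose more in CEFT than in NC and none less, while no cytosolic ribosomal protein was called in either direction (median difference -0.12), and no blood cell marker was. Of the other 61 mitochondrial translation genes 5 rose more. The CEFT calls depended on single animals: refitted with limma voom, 5 members were called with all steers, 17 without CEFT steer 8, and none without NC steer 5, 13 or 15 or without CEFT steer 4. Without CEFT steers 3, 6 or 10 the count was 3, 3 and 2.

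On day 14, 4 members rose more in CEFT than in NC (all genes 0.478% higher and 0.451% lower), and 72 of the 77 differences were above 0, with a median of 0.25. MRPL27, a homolog of L27 near the peptidyl transferase centre, was at 12.9 to 22.7 CPM (median 17.5) in CEFT on day 0 and 24.7 to 31.3 (median 27.1) on day 14, against 16 to 25.5 (median 20.8) and 17.6 to 23.5 (median 21.7) in NC (0.63 ± 0.17, FDR 0.0537). MRPS14 was at 16.5 to 28.4 CPM (median 18.7) in CEFT and 13.8 to 15.6 (median 15) in NC on day 14 (0.61 ± 0.16, FDR 0.0571). MRPL21 was at 27.6 to 32.9 (median 28.5) and 18.7 to 23.8 (median 21.8) (0.48 ± 0.13, FDR 0.0772), and MRPL18 at 21.3 to 26.7 (median 22.5) and 16.7 to 19 (median 18.5) (0.39 ± 0.11, FDR 0.0796). The day 14 values of these 4 genes, which were picked by their calls, did not overlap between the groups. On that day 6 of 77 members and 1.1% of all genes did not overlap. The 4 genes rose in 6 of 6 CEFT steers. Of the cytosolic ribosomal proteins 11 of 77 and of the oxidative phosphorylation genes 8 of 81 also rose more, none rose less, and no blood cell marker was called. By limma voom 5 members were called with all steers, 8 without CEFT steer 8, none without NC steer 13 or CEFT steers 3 or 10, 1 without NC steer 15 or CEFT steers 4 or 6, and 3 without NC steers 1 or 12.

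On day 7, 8 of 77 members had a lower change from day 0 in ENRO than in NC and none a higher one. The share called was near the background, 10.4% of the members beside 11.3% of all genes (6.08% lower and 5.26% higher), so the count by itself is not a result about the members. Of the 6 ENRO steers, steers 6 and 8 had 55 and 65 of the 77 members above their own day 0 on that day, and the other 4 had 13 to 26. They were MRPL38, MRPL58, MRPS2, MRPL40, MRPS6, MRPL17, MRPL54 and MRPL36. The median difference over the 77 members was -0.18, and 10 were above 0.

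MRPL38, a mitochondria-specific protein of the central protuberance, was at 43.1 to 67.7 CPM (median 55.4) on day 0, 49.3 to 64.3 (median 56.7) on day 3 and 31.8 to 45.7 (median 42.9) on day 7 in ENRO. In NC it was at 38.2 to 54.5 (median 47.7), 37.6 to 48 (median 44.6) and 44.3 to 63.7 (median 47.6). ENRO thus started with a higher median and ended with a lower one, and the difference in change was -0.52 ± 0.13 (FDR 0.0111). MRPS2, a homolog of S2, had medians of 41.3, 47.7 and 37.2 CPM in ENRO and 38.5, 35 and 41.9 in NC on the 3 days (-0.46 ± 0.15, FDR 0.0471). MRPL58 had medians of 31.4, 34.6 and 28.9 CPM and 29.4, 31.3 and 32.3 (-0.37 ± 0.11, FDR 0.0346).

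MRPL40 differed by -0.49 ± 0.16 (FDR 0.0506), MRPL17 by -0.29 ± 0.11 (FDR 0.0776) and MRPS6 by -0.75 ± 0.26 (FDR 0.0571), the last with ENRO values spread from 13.7 to 35.4 CPM and NC values from 19.5 to 51 on day 7. MRPL38, MRPL40 and MRPS6 overlap other genes in the annotation. On day 7 the ranges of ENRO and NC overlapped for all 8 genes. In the same comparison 19 of 81 oxidative phosphorylation genes and 7 of 77 cytosolic ribosomal proteins were lower and none higher, and 2 of 7 neutrophil markers were lower. The median difference of the neutrophil markers was -1.02, and their summed level on day 7 was 1620 to 2690 CPM (median 2470) in ENRO and 2460 to 5280 (median 2890) in NC. Their part in the lower members was not tested. By limma voom 6 members were called with all steers, 21 without ENRO steer 6, 15 without ENRO steer 8, 10 without NC steer 1, 1 without ENRO steer 10 or NC steer 5, and none without ENRO steer 2.

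**Figure D5:**
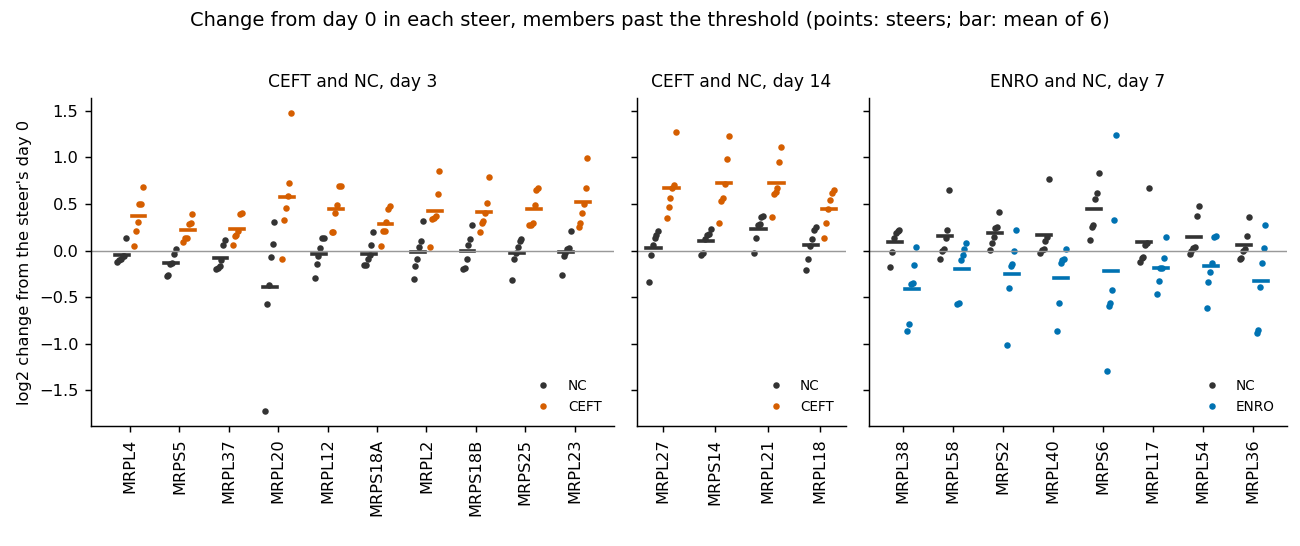
Change from day 0 in each steer (log2 CPM, 1 point per steer, bars for the mean of 6) for the members called against NC: CEFT on day 3 (10 genes), CEFT on day 14 (4 genes) and ENRO on day 7 (8 genes), each beside NC. In CEFT all steers lie above 0 except 1 for MRPL20, while NC steers lie on both sides; in ENRO on day 7 at most 2 of 6 steers rose for each of the 8 genes.

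Of the other comparisons with NC, 2 had a call, which makes 24 calls in all. None of the 24 held in a fit without steer as a block, which ignores the pairing of each steer with its own day 0. MRPL53, a mitochondria-specific large subunit protein, rose more in OXYT by day 56 (0.32 ± 0.07, FDR 0.00878, all genes 2.59% called), from 53.1 to 61.4 CPM (median 57.7) to 63.7 to 70.8 (median 68.7), where NC went from 56.4 to 72.3 (median 65) to 55.8 to 66.9 (median 60.6). MRPL37 rose more in TILD by day 21 (0.32 ± 0.08, FDR 0.0502, all genes 3.64%), from a median of 30.6 to 41.9 CPM, where NC went from 33.3 to 35.8. Both genes rose in 6 of 6 treated steers, and MRPL53 in 2 and MRPL37 in 5 of 6 NC steers. In both comparisons the share of members called was below that of all genes. These 2 counts by themselves are thus not a result about the members. Over the 5 days jointly (F test, FDR 0.1), 24 members passed in CEFT (all genes 12.2%), 13 in ENRO (12.6%), 1 in OXYT (7.16%), 1 in TILD (0.934%) and none in FLOR or TULA (0 and 9 at an unadjusted p under 0.05).

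The antimicrobials that act on the bacterial ribosome were set against those that do not, as the mean change from day 0 in FLOR, OXYT, TILD and TULA less that in CEFT and ENRO. By edgeR's quasi-likelihood test no member passed at FDR 0.1 on any of the days, with 2, 3, 2, 6 and 10 of 77 at an unadjusted p under 0.05 on the 5 days in order. None passed the 5 days together either (22 at an unadjusted p under 0.05, all genes 0.0472% called). The median difference over the members lay between -0.03 and 0.09. On day 7 the group median of the steers' median change was 0.26 in CEFT and -0.1 in ENRO. The mean of CEFT and ENRO on that day thus joins groups that moved in opposite directions. Homologs of bacterial proteins at known drug sites are given for days 3 and 14, and none passed on any day. MRPL4, whose bacterial counterpart borders the macrolide site, differed by -0.11 ± 0.06 on day 3 and 0.00 ± 0.06 on day 14, and MRPL22, also at that site, by 0.15 ± 0.15 and -0.09 ± 0.15. MRPL3 differed by 0.01 ± 0.08 and -0.16 ± 0.08, MRPS10 by 0.08 ± 0.06 and -0.05 ± 0.06, and MRPS12 by -0.11 ± 0.08 and -0.02 ± 0.08. For TILD against NC on day 21, MRPL3 (-0.39 ± 0.13, FDR 0.104) and MRPS12 (0.38 ± 0.13, FDR 0.102) came just short of the threshold in opposite directions.

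The levels on single days were also compared with NC, 6 steers against 6 (edgeR's quasi-likelihood test, FDR 0.1). No member differed on day 0 in any group. On day 3, 22 members differed between CEFT and NC, 15 higher and 7 lower (all genes 6% higher and 4.86% lower), and the values of 11 of 77 did not overlap between the groups (all genes 3.58%). MRPS2 was at 44.2 to 58.8 CPM (median 50.2) in CEFT and 30.9 to 42.3 (median 35) in NC (0.50 ± 0.09, FDR 0.041). MRPL38 was at 52 to 78.5 (median 61.8) and 37.6 to 48 (median 44.6) (0.52 ± 0.11, FDR 0.0417), and MRPL23 at 23.1 to 29.2 (median 27.2) and 16.3 to 20.9 (median 19.3) (0.46 ± 0.09, FDR 0.0414). The CEFT values of these 3 genes lay wholly above those of NC. MRPL12 and MRPL2 were also higher (0.39 ± 0.08 and 0.49 ± 0.11). The count of 22 fell to 2 without NC steer 12, 3 without NC steer 15, 4 without NC steer 7, 5 without NC steer 13 or CEFT steer 6, 9 without NC steer 1 or CEFT steers 4 or 5, and 11 without CEFT steer 3, and it was 30 without CEFT steer 8.

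MRPS16, a homolog of S16, was lower in CEFT, at 18.7 to 26.3 CPM (median 21.1) against 26.2 to 36.7 (median 29.4) (-0.49 ± 0.12, FDR 0.0586). The other lower members were MRPL1, MRPL13, MRPL19, MRPL47, MRPL51 and MRPS33, which are named because they went against the rest and so after their values were seen. Their differences ran from -1.13 ± 0.37 for MRPL1 to -0.52 ± 0.16 for MRPL51, and the groups overlapped for each. On day 0, before treatment, the same 7 genes differed by -0.23 to -0.45, none past the threshold (FDR 0.913). The change from day 0 gave no lower member in CEFT on day 3. In this test 20 of 81 oxidative phosphorylation genes were higher and 5 lower, and 10 of 77 cytosolic ribosomal proteins lower and 1 higher.

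Smaller sets differed on day 3 in other groups, all against the same 6 NC libraries. The shares of members called in ENRO, OXYT and TILD were near those of all genes. These counts by themselves are thus not a result about the members. MRPL38, MRPS2, MRPL40 and MRPL54 were higher in ENRO (all genes 3.33% called), by 0.36 ± 0.08, 0.42 ± 0.10, 0.39 ± 0.10 and 0.25 ± 0.07. These 4 are among the 8 members whose change by day 7 was lower in ENRO than in NC. MRPL38 and MRPS2 were higher in OXYT (3.00%), by 0.35 ± 0.08 and 0.34 ± 0.08, and MRPL40 and MRPL12 in TILD (3.14%), by 0.33 ± 0.08 and 0.29 ± 0.07. MRPL38 was at 49.3 to 64.3 CPM (median 56.7) in ENRO and 49.7 to 60.5 (median 58.3) in OXYT, against 37.6 to 48 in NC. On day 14 MRPL21 alone was higher in CEFT (0.41 ± 0.08, FDR 0.0932, all genes 0.310%). None of the ENRO, OXYT and TILD calls on day 3 was left without NC steer 7, 12, 13 or 15, and that of CEFT on day 14 was left only without NC steer 5. None of the day 3 calls of CEFT, OXYT and TILD remained with lane as a term, a fit in which NC shares its lane only with ENRO and 2 FLOR steers, and 3 of the 4 ENRO calls did.

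Over all 6 days, 5 differences between a group and NC passed (limma voom, steer as a random block, FDR 0.05). MRPL1 was lower in CEFT (log2 -0.95 ± 0.25, FDR 0.0169, all genes 3.46% called), with medians of 5.16, 3.04, 3.82, 2.99, 2.92 and 2.72 CPM on the 6 days in CEFT and 6.99, 7.58, 7.51, 6.54, 5.94 and 4.84 in NC. MRPL15 was higher in FLOR (0.35 ± 0.07, FDR 0.000664, all genes 1.56%), with medians of 21.5 to 24.5 CPM against 16.7 to 20.5. In TILD (all genes 4.99%), MRPL57 (-0.38 ± 0.10) and MRPL53 (-0.16 ± 0.04) were lower and MRPL40 (0.31 ± 0.10) was higher. The day 0 medians already differed in the same direction for all 5, such as 22.9 CPM in FLOR and 16.7 in NC for MRPL15 and 16.2 in TILD and 23.5 in NC for MRPL57, and none of the 5 passed with lane as a fixed term. No member passed in ENRO, OXYT or TULA. The shares of members called in CEFT, FLOR and TILD were below those of all genes. These counts by themselves are thus not a result about the members.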

How the data were processed

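Whole blood was collected into PAXgene tubes, poly(A) RNA was sequenced from stranded libraries in paired-end mode, and the authors deposited estimated counts per gene (StringTie with prepDE, read length 150) for 252 libraries, with no normalization. Per the labels, FastQC 0.11.9, Trimmomatic 0.39, HISAT2 2.1.1 and StringTie 2.2.0 were used, and the methods name the assembly ARS-UCD1.3. HISAT2 and StringTie ran with default settings, and whether strand was used in counting is not given in the sources used here. The authors' lane adjustment (ComBat_seq) came after this table and is tried here as an alternative. All 252 columns were used.

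Values were whole numbers and were tested as counts with edgeR 4.0.16 in R 4.3.3. The filter kept genes past 0.2 CPM in 12 libraries or more, and scaling was by TMM. Time and change from day 0 came from 1 quasi-likelihood fit of all libraries with steer as a fixed block and treatment by day (77 coefficients). Day tests set 6 treated libraries against 6 of NC. Group effects used limma 3.58.1 voom with steer as a random block (correlation within steers 0.359), in place of a mixed model that is not installed. The authors' mixed model also held breed as a random effect, and breed was left out here. FDR thresholds were 0.05 for time and group effects and 0.1 for treatment comparisons. Changes within steers are differences of log2 CPM (prior count 2). DESeq2 1.42.0 and sva 3.50.0 served for alternatives. Scripts were tested on counts simulated with the same spread for all genes. Log2 changes of 0.5 in either direction were recovered at 100% for day 14 less day 0 over all steers. For CEFT against NC on day 3, 0% of them were recovered, by the change from day 0 and by the day test. Changes of 1 there were recovered at 16 to 38%. False calls were 7.69% of the calls for the change and 12% for the day test. The simulated spread was not matched to that of the members, so these shares are not their rates of recovery. In the data, changes called in CEFT on day 3 ran from 0.31 ± 0.08 (MRPL37) to 0.84 ± 0.25 (MRPL20).

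The block rests on the labels, which give each steer's ID. Libraries of 1 steer deviated together from their group means in all 42 steers (mean r within a steer 0.271 or more, median 0.339). Steers are separate animals, so replicate error is biological. The members and the lists were chosen with earlier results of these data known. Members were named by rule: the 10 with the largest mean absolute change past the F test, those called against the majority (up to 10), those called against NC (at most 6 a comparison), homologs at known drug sites or of known function, and the 3 members with the most and the least variance between steers. RefSeq names and neighbours came from another assembly, ARS-UCD2.0, so no coordinates are given, and no transcript lengths or sequences were used here.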

Additional observations from a re-analysis of the deposited data

Results flagged for a closer look

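Of 62 groups of 6 libraries examined, 7 held a library far from the other 5 by Dixon's criterion at the 95% level. Chance gives about 1 in 20 groups, but the 62 count a gene's NC group again for each call that used it. The 7 are distinct. On day 3, NC steer 15 was low for MRPL2 (13.8 CPM, the nearest at 16.1), and NC steer 5 was low for MRPL51 (22.4, nearest 31.8). CEFT steer 4 was high for MRPS5 (44, nearest 37.6). CEFT steer 8 was high for 3 members that were lower in CEFT than in NC, namely MRPS33 (21.5, nearest 12), MRPL1 (7.62, nearest 3.23) and MRPL13 (14.1, nearest 9.02). OXYT steer 6 was high for MRPS2 (51.5, nearest 45.9).

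The change from day 0 differed between a treated group and NC in 24 tests over 23 members, by edgeR's quasi-likelihood test at FDR 0.1. On the log2 scale, the difference for CEFT on day 3 was 0.42 for MRPL4, 0.36 for MRPS5, 0.31 for MRPL37, 0.84 for MRPL20, 0.48 for MRPL12, 0.31 for MRPS18A, 0.46 for MRPL2, 0.43 for MRPS18B, 0.46 for MRPS25 and 0.52 for MRPL23. For CEFT on day 14 it was 0.63 for MRPL27, 0.61 for MRPS14, 0.48 for MRPL21 and 0.39 for MRPL18. For ENRO on day 7 it was -0.52 for MRPL38, -0.37 for MRPL58, -0.46 for MRPS2, -0.49 for MRPL40, -0.75 for MRPS6, -0.29 for MRPL17, -0.33 for MRPL54 and -0.40 for MRPL36. It was 0.32 for MRPL53 in OXYT on day 56 and 0.32 for MRPL37 in TILD on day 21.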

How the results depend on the processing

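Members called over time kept their number under every alternative run for all steers (69 to 72 of 77 by the F test, where 72 were reported). On day 14 the 21 genes followed kept their direction, and each stayed called or not called as before. Among them MRPL3, MRPL22, MRPL28, MRPS10 and MRPS30 were not called on that day. Counts in comparisons with NC moved more, and the cause was not tested. Without the replicate block (steer), 13 members passed over time in NC (35 with it), 0 of the 24 changes from day 0 that differed from NC remained called (0 in CEFT on days 3 and 14 and in ENRO on day 7), 1 passed over the days together in CEFT and 1 in ENRO (24 and 13), and 116 group effects over all days passed in place of 5. A fit without the block treats the libraries of 1 steer as separate animals, although they deviated together. Its 116 group effects are thus not a valid count, and its changes from day 0 ignore the pairing within steers. The block changed no other count by over 1.5 times. With no filter on low counts, which adds genes to the correction, 12 changes from day 0 were called (3 in CEFT on day 3, 2 in CEFT on day 14, 5 in ENRO on day 7, and 11 in CEFT over the days together), 11 of the 31 day tests (9 for CEFT, 1 for ENRO, 1 for OXYT and 0 for TILD on day 3, and 0 for CEFT on day 14), and 25 group effects. By limma voom 5 of the changes in CEFT on day 3 were called, and at FDR 0.05, a threshold chosen after seeing the data, 2. DESeq2 called 130 day tests (10 for ENRO, 6 for OXYT and 12 for TILD on day 3, and 6 for CEFT on day 14), and median-of-ratios size factors gave 4 for TILD on day 3. After ComBat_seq by lane, 2 day tests passed by the likelihood ratio test, both ENRO on day 3, and 3 by the quasi-likelihood test, and with lane as a term 5 passed, with 0 for CEFT on days 3 and 14 and for OXYT and TILD on day 3 in each case. With lane as a term, 2 differences turned: MRPL28 in CEFT on day 3 (-0.49, FDR 0.932) and MRPL21 in CEFT on day 14 (-0.27, FDR 0.920). Group effects came to 0 with lane and to 8 over days 3 to 56.

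Leaving out each steer in turn gave 0 to 17 changes from day 0 for CEFT on day 3, 0 to 8 for CEFT on day 14 and 0 to 21 for ENRO on day 7 (limma voom, chosen for these refits after seeing the data), and day tests of 2 to 30 for CEFT, 0 to 6 for ENRO, 0 to 5 for OXYT and 0 to 4 for TILD on day 3, and 0 to 1 for CEFT on day 14. No paired analysis was possible between groups because different groups hold different steers. The adjustment for transcript length was not run, as no lengths were used here. Scaling moved the median change of all genes to between 0.01 and 0.03 and that of the members by at most 0.01. With 6 steers a group, 1 pen a treatment and lanes shared by whole groups, differences from NC rest on few animals, and low counts limit MRPS15.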
